A study of Homo sapiens with 27 samples.

Results

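Long noncoding RNAs are transcripts that act without being translated, and 7 of them that are known from melanoma, from other tumors or from nuclear bodies were followed here in uveal melanoma cells. They are MALAT1, NEAT1, SAMMSON, PCA3, GAS5, MEG3 and H19, taken by symbol from a count table of 61533 genes, in which each of the 7 had a single row. The cells were 92.1, a GNAQ mutant uveal melanoma cell line grown in RPMI with serum, and every group came from this same line. They were kept in DMSO, the solvent control, or in 100 nM of VS-4718, an inhibitor of the kinase FAK (FAKi), with drug and media renewed every 72 h. Libraries were made from DMSO cells on day 0, and then from DMSO and FAKi cells on days 3, 7, 14 and 21, which gives 9 groups of 3 replicates, or 27 libraries. The labels number the replicates without saying whether they are cultures of 1 experiment or repeats of it. The methods report triplicate plating per condition and 3 biological replicates of the whole experiment, but do not match them to these numbers. P-values therefore measure the spread between these libraries.

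MALAT1 sits in nuclear speckles, where splicing factors gather, and NEAT1 is the RNA scaffold of paraspeckles, nuclear bodies that hold RNA and RNA-binding proteins. SAMMSON lies beside MITF, is controlled by the melanocyte factor SOX10 and is known as a survival factor of melanoma cells. PCA3 is a prostate cancer marker transcribed from within an intron of PRUNE2, on the other strand. GAS5 carries small nucleolar RNAs (snoRNAs) in its introns, and transcripts of this kind with a run of C and T at their start respond to the growth state of the cell. H19 and MEG3 are imprinted RNAs that are expressed from the maternal chromosome, beside the paternally expressed genes IGF2 and DLK1.

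Total counts per library ran from 12161994 to 43651551. The melanocyte markers MITF, SOX10, PMEL, MLANA, TYR and TYRP1 were all above 125 counts per 1e6 counts (CPM) in every library, DCT was at 2.49 to 28.5 CPM, and the prostate markers KLK3 and KLK2 were at 0 in 24 and 25 of 27 libraries. The blood marker PTPRC was at 0 in 20 libraries and the endothelial marker CDH5 in 24, while KRT18 (4.22 to 49.6 CPM), CD68 (23.4 to 124 CPM) and the prostate gene FOLH1 (4.34 to 9.33 CPM) were detected in every library. The endothelial genes PECAM1 and VWF were at 0 in only 5 and 7 libraries, and reached 0.885 and 0.446 CPM. Of the fibroblast genes, COL1A1 (3.13 to 9.90 CPM) and LUM (1.43 to 8.66 CPM) were detected in every library. PDGFRB was at 0 in 3 libraries and DCN in 23. The epithelial genes KRT8 and CDH1 were also detected in every library, and EPCAM was at 0 in 19. Several libraries stood closer to another group than to their own, by the root mean square distance of log2 CPM over 16982 genes. DMSO day 3 replicate 1 was nearest to DMSO day 0 replicate 3, at 0.261, while DMSO day 3 replicates 2 and 3 were nearest to DMSO day 21 replicate 3, at 0.380 and 0.324. The latter library, whose column name carries a surplus digit in its day, was in turn nearest to DMSO day 3 replicate 3. FAKi day 7 replicate 1 was nearest to FAKi day 14 replicate 1, at 0.215. FAKi day 7 replicate 2 was nearest to a control library, DMSO day 7 replicate 3, at 0.348. It stays in the day 7 values that leave out FAKi day 7 replicate 1. The share of counts in mitochondrial genes followed the day, from 22 to 27% in DMSO day 14 down to 5.49 to 9.75% in DMSO day 21. Within DMSO day 3 it was 18.1% in replicate 1 and 9.59% and 8.61% in the others. Some member results that rest on DMSO day 3 replicate 1, FAKi day 7 replicate 1 or DMSO day 21 replicate 3 are also given without them, and the others only with them. In bulk RNA a change in the mix of cells and a change in the RNA of each cell cannot be told apart.

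The sequences around the starts of PCA3 and SAMMSON are shown because both were called higher in FAKi at day 21, and they run from 250 bases before to 50 bases from the start of the transcript that was counted. Each was read from hg38, 5′ to 3′ on the strand of the gene, and capitals mark a match to 1 of the searched motifs. The PCA3 window is chr9:76704543-76704842 and the SAMMSON window is chr3:69999498-69999797, both on the plus strand.
PCA3: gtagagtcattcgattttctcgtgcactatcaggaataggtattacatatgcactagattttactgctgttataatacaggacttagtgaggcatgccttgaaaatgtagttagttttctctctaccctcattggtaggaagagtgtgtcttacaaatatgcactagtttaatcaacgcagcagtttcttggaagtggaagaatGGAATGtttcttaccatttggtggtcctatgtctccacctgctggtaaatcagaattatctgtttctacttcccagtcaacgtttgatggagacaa
SAMMSON: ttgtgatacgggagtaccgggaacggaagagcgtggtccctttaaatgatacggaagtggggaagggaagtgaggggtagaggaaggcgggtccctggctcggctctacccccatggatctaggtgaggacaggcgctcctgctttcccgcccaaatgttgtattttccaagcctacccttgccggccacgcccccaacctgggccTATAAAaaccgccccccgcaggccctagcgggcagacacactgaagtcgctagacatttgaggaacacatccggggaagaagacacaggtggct

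Short motifs were searched on both strands, and the background is the share of 35116 RefSeq promoter windows of this length on GRCh38.p14 that held each. The E-box CACGTG was in 7.26% of these windows, and the second form of the E-box, spelled CATGTG, in 11.1%. The AP-1 motif TGANTCA was in 7.71% and the TEAD motif CATTCC in 14%. The SOX motif ACAAAG was in 16.1% and the TATA box, TATAAA, in 11.5%. The PCA3 window held 1 CATTCC, on the reverse strand 46 bases before the start, and its GC content was 39%, beside 58.7% for SAMMSON. The SAMMSON window held 1 TATAAA, 44 bases before the start. The starts counted here are not always those of RefSeq: for PCA3 the nearest RefSeq start lay 59643 bases away, while SAMMSON and NEAT1 had no RefSeq window.

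The counted transcripts share bases with other genes, and neither the counting command nor the methods name a strand setting. For PCA3 (chr9:76704793-76819405, plus strand), 764 of 1429 exon bases (53.5%) are also exon of the counted PRUNE2 transcript on the minus strand, and these bases make up 6.18% of that PRUNE2 transcript. For MALAT1 (chr11:65497762-65506469, plus strand), 89.2% of 8708 bases lie under antisense exons in GENCODE 44, mostly those of TALAM1. Without strand, reads of PCA3 and PRUNE2 over shared bases, and of MALAT1 and TALAM1, cannot be told apart. GAS5 (chr1:173863931-173867991, minus strand) shared 11 bases with GAS5-AS1, while SAMMSON (chr3:69999748-70070336, plus strand) and NEAT1 (chr11:65422798-65445540, plus strand) shared none with an opposite strand gene. MEG3 (chr14:100826118-100857624, plus strand) also shared none, and 6.02% of the H19 exons (chr11:1995171-1997875, minus strand) lay under small antisense annotations.

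The 7 members ranged from nearly absent to the most abundant of the noncoding genes, with levels given as CPM scaled with TMM over all 27 libraries. NEAT1 was the most abundant of 17755 lncRNA rows, at 2019 ± 600 CPM (SD over the 27 libraries), and ranked 37th among all genes. MALAT1 followed at 766 ± 274 CPM, the 6th lncRNA, and GAS5 at 447 ± 284 CPM, the 10th. PCA3 averaged 5.18 ± 3.95 CPM, H19 1.48 ± 0.78 and SAMMSON 1.25 ± 0.52. Per kilobase of the counted transcript the order of the upper 3 changed, with GAS5 at 142 CPM per kb and NEAT1 and MALAT1 level at 88.8 and 88. The NEAT1 value is divided by the 22742 bases of its counted transcript, and where its reads lie along them was not tested. The spread over libraries was widest for PCA3, from 0.143 to 14.0 CPM, a 97.5-fold range, and narrowest for NEAT1, at 2.91-fold. MEG3 had 13 counts in all 27 libraries together.

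**Figure D1:**
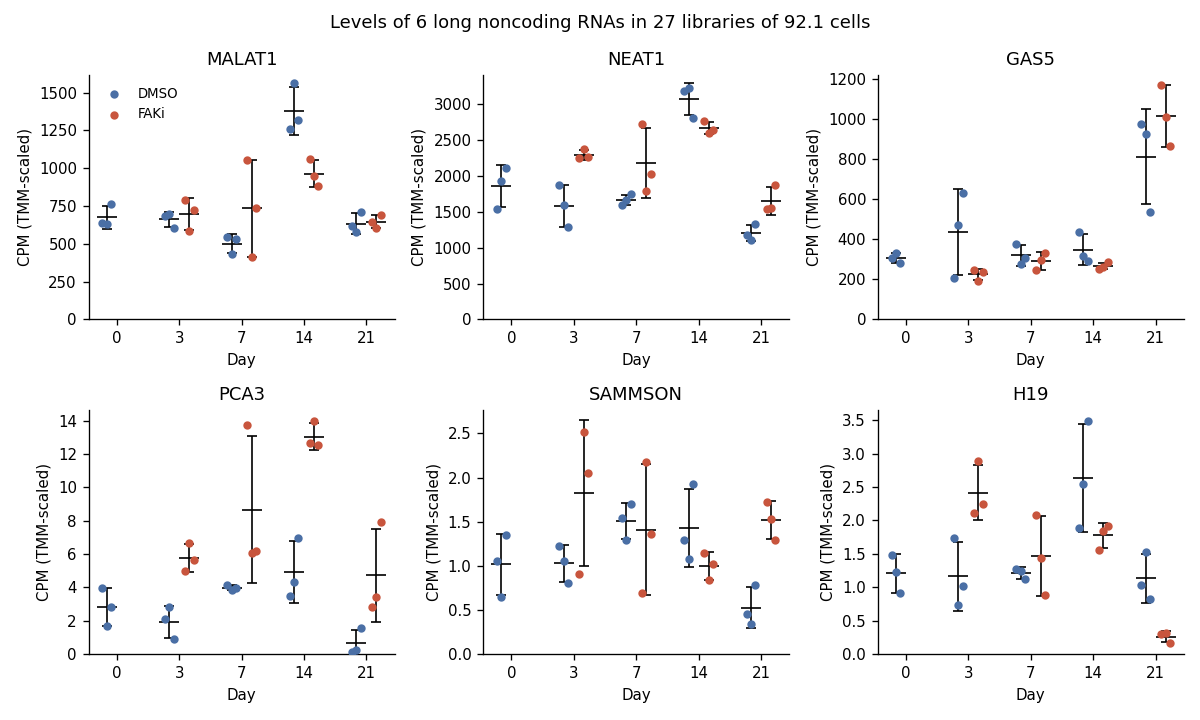
Levels of 6 long noncoding RNAs in TMM-scaled CPM (y axis, linear from 0) by day (x axis), DMSO in blue and FAKi in red, with each point 1 library and the black bars the mean ± SD of 3 libraries. PCA3 lies higher with FAKi on days 3, 7, 14 and 21, NEAT1 and MALAT1 are highest in DMSO day 14, GAS5 is highest at day 21 in both treatments, and H19 is lowest in FAKi day 21.

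The effect of FAKi was read from FAKi against DMSO on the same day, and the word called stands for a gene that passed both limits of edgeR's quasi-likelihood test, an adjusted p no higher than 0.05 and a log2 fold change beyond 1 in either direction. At day 3, 0 of the 6 members tested were called, as were 0% of the 22846 genes tested, while 4 of the 6 members and 23.8% of all genes had an unadjusted p under 0.05 and DESeq2 called 1 member, PCA3. At day 7, 0 of 6 were called against 0.0269% of all genes, with 1 member and 8.77% of all genes under an unadjusted p of 0.05 and 0 members called by DESeq2. At day 14, 1 of 6 was called (PCA3) against 1.66% of all genes. At day 21, 3 of 6 were called (PCA3 and SAMMSON higher, H19 lower) against 5.28% of all genes. Without DMSO day 21 replicate 3 the same 3 were called, against 18.7% of all genes. Without DMSO day 21 replicate 1 or 2, or without FAKi day 21 replicate 1, 2 or 3, 0 were called. Over the mean of the 4 days, 1 of 6 was called, again PCA3, against 1.89% of all genes.

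The day 3 count changed with the control libraries. Without DMSO day 3 replicate 1, which was nearest to day 0, 3 of 6 members were called at day 3, where 12.7% of all genes were then called. These were PCA3, with a log2 fold change of 1.64 (adjusted p 0.00372), H19, with 1.47 (adjusted p 0.00451), and GAS5, with -1.27 (adjusted p 9.41e-05). The nearest library to each of the 2 controls left was DMSO day 21 replicate 3, and they had 9.59% and 8.61% mitochondrial counts against 16.8 to 18.7% in FAKi day 3. Without DMSO day 3 replicate 2, 0 members and 0% of all genes were called, and without replicate 3, 0 members and 0.00901%.

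FAKi and DMSO libraries did not overlap in 3 of 6 members at day 3, where 31.1% of all genes did not overlap. The same held for 2 of 6 at day 7 (16.8% of all genes), 4 of 6 at day 14 (29.0%) and 4 of 6 at day 21 (35.4%). PCA3 and NEAT1 were the members whose groups were apart on all 4 days, PCA3 always higher in FAKi, and NEAT1 higher on days 3, 7 and 21 and lower on day 14.

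**Figure D2:**
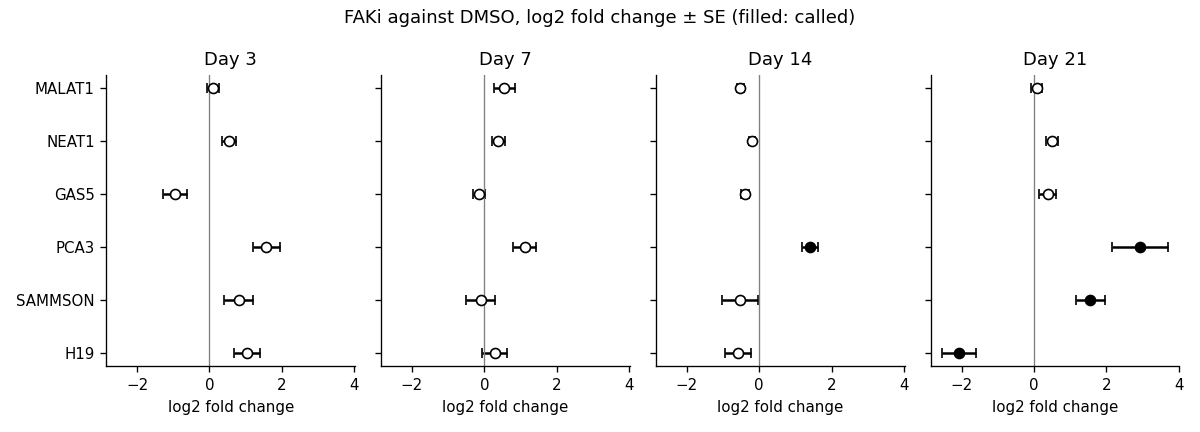
Log2 fold change of FAKi against DMSO (x axis) for 6 members (y axis) at days 3, 7, 14 and 21, with bars of 1 SE from edgeR, 3 libraries per group. Filled points are called: PCA3 at days 14 and 21, SAMMSON at day 21 and H19 at day 21, the last of these to the left of 0.

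PCA3 rose with FAKi and was the member with the largest mean effect. The DMSO libraries of day 0 held 3.96, 1.71 and 2.85 CPM. Those of day 3 held 2.11, 2.81 and 0.914 CPM, against 4.996, 6.66 and 5.66 CPM in the FAKi libraries. At day 7 it read 4.17, 3.84 and 3.97 CPM in DMSO and 13.7, 6.05 and 6.20 CPM in FAKi. The high FAKi day 7 value was that of replicate 1, the library nearest to FAKi day 14. At day 14 PCA3 read 3.46, 4.32 and 6.98 CPM in DMSO and 12.6, 14.0 and 12.5 CPM in FAKi. At day 21 DMSO fell to 0.143, 0.284 and 1.57 CPM, from 5, 5 and 34 counts, while FAKi read 2.84, 3.44 and 7.94 CPM. All 3 FAKi libraries were above all 3 DMSO libraries on each day.

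For PCA3 the log2 fold change of day 3 was 1.57 (SE 0.36, adjusted p 0.0945) and that of day 7 was 1.11 (SE 0.32, adjusted p 0.363). Day 14 gave 1.40 (SE 0.22, adjusted p 0.000192) and day 21 gave 2.93 (SE 0.77, adjusted p 0.0457). The mean over the 4 days was 1.75 (SE 0.25, adjusted p 3.15e-05), a 3.37-fold difference, and it was called under each of 34 alternatives, between 1.60 and 2.18. The day 14 call was lost when all 27 libraries entered 1 fit (adjusted p 0.0575). Without FAKi day 7 replicate 1 the day 7 value was 0.60. At day 21 the value with the replicate block was 3.14 (adjusted p 0.000319). The block was taken for that day from these same data, where deviations of libraries with the same number correlated unevenly (r 0.443, 0.128 and 0.658). The labels do not state such a pairing. The day 21 call was lost when any of DMSO replicates 1 and 2 or FAKi replicates 1, 2 and 3 was left out, with adjusted p up to 0.189, and without DMSO replicate 3 the log2 fold change was 4.69. In DMSO alone PCA3 fell by 2.15 on the log2 scale from day 0 to day 21 (SE 0.74, adjusted p 0.0421), a call lost without any of DMSO day 0 replicates 1, 2 and 3 or DMSO day 21 replicates 1 and 2 (adjusted p up to 0.152), while without DMSO day 21 replicate 3 the value was -3.88. Between days 3 and 21 the FAKi effect on PCA3 changed by 1.34 (SE 0.90), which had an adjusted p of 0.448.

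PRUNE2, the gene around PCA3, moved in the same direction. Its level was 24.2, 18.9 and 27.5 CPM in DMSO day 21 and 74.4, 81.7 and 116 CPM in FAKi day 21, a called log2 fold change of 1.99 (SE 0.21, adjusted p 0.00401), or 2.13 without DMSO day 21 replicate 3. At day 7 it was 1.37 (SE 0.30, adjusted p 0.241), or 0.87 without FAKi day 7 replicate 1 (adjusted p 0.00045). Its mean FAKi effect was 1.41 (SE 0.14, adjusted p 1.24e-07), and at day 14 it was 0.93 (SE 0.11, adjusted p 1.12e-05). In DMSO it was higher at day 14 than at day 0 by 1.53 (adjusted p 5.39e-07) and lower at day 21 by 1.01 (adjusted p 0.0029), both called. PCA3 was counted at 0.592 and 1.502 per 100 PRUNE2 counts in DMSO day 21 replicates 1 and 2, and at 2.82 to 8.12 in the other 25 libraries. The shared exon bases are 6.18% of the counted PRUNE2 transcript, so the part of PRUNE2 reads in the PCA3 counts cannot be told apart from PCA3 itself.

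**Figure D3:**
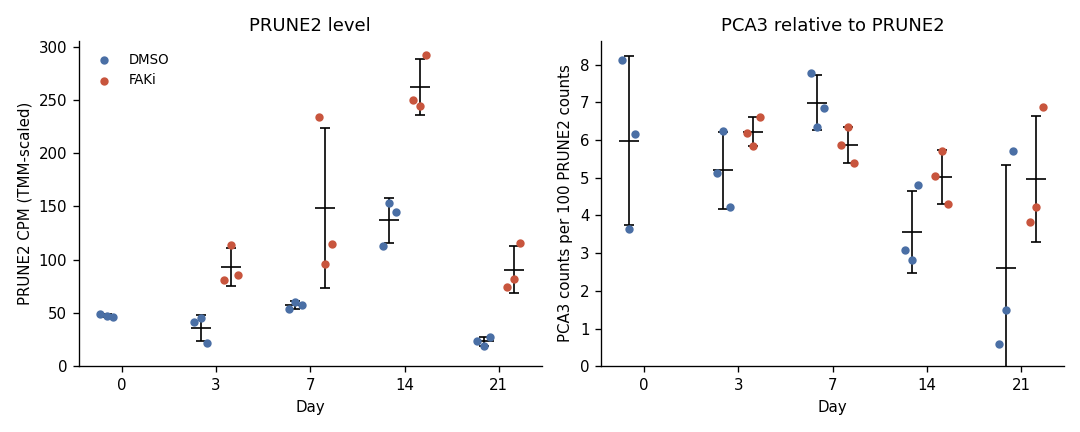
PRUNE2 level in TMM-scaled CPM (left, y axis) and PCA3 counts per 100 PRUNE2 counts (right, y axis) by day (x axis), DMSO in blue and FAKi in red, with each point 1 library and bars the mean ± SD of 3 libraries (the bar of DMSO day 21 on the right goes under 0 and is clipped by the axis). PRUNE2 lies higher with FAKi on all 4 days, and the ratio lies between 2.82 and 8.12 in 25 libraries and at 0.592 and 1.502 in 2 libraries of DMSO day 21.

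SAMMSON was called higher in FAKi at day 21 and at no other day. It read 0.458, 0.341 and 0.787 CPM in DMSO day 21, from 16, 6 and 17 counts, and 1.72, 1.53 and 1.29 CPM in FAKi day 21, from 40, 29 and 45 counts. The groups were apart, and DMSO day 21 had the lowest mean of the 9 groups, below FAKi day 14 without overlap. Its highest library, at 0.787 CPM, was above the lowest of DMSO day 0 (0.652 CPM) and of FAKi day 7 (0.694 CPM). The log2 fold change was 1.55 (SE 0.40, adjusted p 0.0428), or 1.58 with the replicate block (adjusted p 0.0201). The call was lost without any of DMSO day 21 replicates 1 and 2 or FAKi day 21 replicates 1, 2 and 3, with adjusted p between 0.121 and 0.145. At day 3 DMSO read 1.22, 1.06 and 0.805 CPM and FAKi 0.913, 2.52 and 2.05 CPM, a log2 fold change of 0.80 (SE 0.41, adjusted p 0.254). At days 7 and 14 the groups overlapped and the log2 fold changes were -0.10 (SE 0.40) and -0.52 (SE 0.50). Between days 14 and 21 the FAKi effect changed by 2.05 (SE 0.61, adjusted p 0.0369), in a comparison added after the values were seen, where 7.43% of all genes were called. That call was kept without DMSO day 14 replicate 1 or 2 or DMSO day 21 replicate 3, and lost without any other library of the 4 groups, with adjusted p between 0.0598 and 0.0951.

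The genes listed with SAMMSON, its regulator, neighbor and partners, were not called between treatments. SOX10, its activator, differed by 0.30 at day 21 (SE 0.17, adjusted p 0.242) and its neighbor MITF by -0.22 (SE 0.15, adjusted p 0.356). C1QBP, the mitochondrial protein known to bind SAMMSON, had a log2 fold change of -0.39 at day 14 (adjusted p 0.0212), -0.75 at day 21 (adjusted p 0.0318) and -0.41 in the mean effect (adjusted p 0.000707), all under the fold threshold. Without DMSO day 21 replicate 3 the day 21 value of SOX10 was 0.47 (adjusted p 0.000859). In DMSO from day 0 to day 21, where 44.9% of all genes passed the adjusted p, SOX10 fell by 0.97 (adjusted p 0.00349), XRN2 by 0.62 (adjusted p 0.0372) and MITF by 0.44 (adjusted p 0.0436), and without that library SOX10 was called, at -1.13.

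H19 was called lower in FAKi at day 21. There it read 1.03, 1.53 and 0.833 CPM in DMSO, from 36, 27 and 18 counts, and 0.301, 0.317 and 0.172 CPM in FAKi, from 7, 6 and 6 counts. FAKi day 21 was the lowest of the 9 groups and did not overlap with the next. The log2 fold change was -2.07 (SE 0.47, adjusted p 0.0302), or -2.03 with the replicate block (adjusted p 0.0112). At day 3 H19 read 1.74, 0.730 and 1.02 CPM in DMSO and 2.11, 2.89 and 2.25 CPM in FAKi, a log2 fold change of 1.03 (SE 0.36, adjusted p 0.140). The highest of these DMSO values was again that of replicate 1.

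The change of the H19 effect from day 3 to day 21 was called, at -3.13 (SE 0.57, adjusted p 0.0142), where 2.22% of all genes were called. Between the 2 days the effects at days 7 and 14 were 0.28 (SE 0.35, adjusted p 0.848) and -0.58 (SE 0.36, adjusted p 0.362). Leaving out FAKi day 3 replicate 2 or FAKi day 21 replicate 3 ended that call, with adjusted p up to 0.0658, and the value stayed between -3.54 and -2.81. The day 21 call itself was lost without any of DMSO replicates 1 and 2 or FAKi replicates 1, 2 and 3, with adjusted p between 0.0842 and 0.140. In DMSO, H19 was higher at day 14 than at day 0 by 1.13 (SE 0.36, adjusted p 0.0294), with 1.89, 2.54 and 3.49 CPM against 1.49, 1.22 and 0.915 CPM. That call was lost without any of the day 0 libraries or without DMSO day 14 replicate 3, with adjusted p up to 0.141.

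IGF2, the growth factor gene that shares its imprinted locus with H19, was lower in FAKi in the mean effect, with a log2 value of -1.74 (SE 0.43, adjusted p 0.00728). At day 21 it was at 28, 5 and 24 counts in DMSO and at 1, 4 and 0 counts in FAKi, a log2 fold change of -3.27 (SE 0.98) with an adjusted p of 0.0625, and called without DMSO day 21 replicate 3, at -2.89 (adjusted p 0.0147). At days 3, 7 and 14 IGF2 was at -0.26, -2.00 and -1.41, none called, where H19 was at 1.03, 0.28 and -0.58. In DMSO against day 0 IGF2 was called lower at day 7 (-1.35), day 14 (-2.46, adjusted p 0.024) and day 21 (-1.41). H19 was called higher there at day 14, at 1.13, and not called at day 7 (0.006) or day 21 (-0.11). MEG3 had counts in 5 of 27 libraries, 1 each in DMSO day 0 replicates 1 and 2 and FAKi day 21 replicate 3, 3 in DMSO day 21 replicate 1 and 7 in DMSO day 14 replicate 1. It failed the filter of 20 counts in every comparison and was not tested. A count of 0 allows up to 0.0668 to 0.245 CPM in these libraries.

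NEAT1 differed between treatments by less than 1.5-fold on every day, and the direction at day 14 was opposite to the other days. At day 3 it read 1865, 1600.3 and 1285 CPM in DMSO and 2249.7, 2371 and 2256 CPM in FAKi, and at day 7 1595, 1659 and 1742 CPM in DMSO and 2723, 1793 and 2024 CPM in FAKi. At day 14 it read 3185, 3216 and 2811 CPM in DMSO and 2766, 2596 and 2638 CPM in FAKi. At day 21 it read 1169, 1107 and 1333 CPM in DMSO and 1532, 1546 and 1878 CPM in FAKi. The groups were apart on all 4 days. The log2 fold changes were 0.55 (SE 0.19, adjusted p 0.140), 0.38 (SE 0.18, adjusted p 0.592), -0.21 (SE 0.09, adjusted p 0.124) and 0.51 (SE 0.16, adjusted p 0.0776), in order of days. Without FAKi day 7 replicate 1 the day 7 value was 0.19 (adjusted p 0.400), and without DMSO day 21 replicate 3 the day 21 value was 0.60 (adjusted p 0.000248). With the replicate block the day 21 adjusted p was 0.0177, at 0.51. The mean effect of 0.30 (SE 0.08) had an adjusted p of 0.0135 and stayed between 0.25 and 0.34 over 34 alternatives.

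The change of the NEAT1 effect had an adjusted p of 0.0289 from day 3 to day 14, at -0.75 (SE 0.20), and of 0.0194 from day 14 to day 21, at 0.69 (SE 0.18). Both were under the fold threshold, in comparisons added after the values were seen, where 8.54% and 12.7% of all genes passed the adjusted p. Over 22 alternatives the adjusted p of NEAT1 rose up to 0.0895 and 0.0654. From day 3 to day 14, 0 of 6 members were called by edgeR, against 4.33% of all genes. Of the 6, 4 had an unadjusted p under 0.05, as did 24.9% of all genes, and DESeq2 called 1.

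MALAT1 differed between treatments at day 14. It read 1257, 1560.4 and 1320.15 CPM in DMSO day 14 and 1061, 946 and 883 CPM in FAKi day 14, so all FAKi libraries were lower. The log2 fold change was -0.52 (SE 0.10, adjusted p 0.00125), under the fold threshold, and lay between -0.60 and -0.43 over 16 alternatives, with adjusted p up to 0.127. At days 3 and 21 the values were 0.09 (SE 0.17, adjusted p 0.766) and 0.07 (SE 0.15, adjusted p 0.750), with overlapping groups. At day 7 FAKi spread from 412 to 1053 CPM and DMSO from 431 to 546 CPM, and without FAKi day 7 replicate 1 the log2 fold change went from 0.55 to 0.19. The change of the effect from day 14 to day 21 was 0.57 (SE 0.18, adjusted p 0.0496), where 12.7% of all genes passed the adjusted p. With all 27 libraries in 1 fit the adjusted p of this change was 0.207.

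Both nuclear RNAs were higher in DMSO at day 14 than at day 0. Of all genes, these comparisons called 0% on day 3 and 0.699% on day 7, then 6.07% on day 14 and 23.3% on day 21. Of the 6 members, 0 were called by edgeR or DESeq2 at day 3, with 0 under an unadjusted p of 0.05 (9.86% of all genes), and 0 at day 7, with 2 under it (16.9% of all genes). At day 14, 2 were called, MALAT1 and H19, and at day 21 another 2, GAS5 higher and PCA3 lower, with SAMMSON also called lower without DMSO day 21 replicate 3, at -1.34 (adjusted p 0.0132). MALAT1 read 635, 629 and 765 CPM at day 0, and its log2 fold change at day 14 was 1.03 (SE 0.11, adjusted p 9.62e-06), which went under the fold threshold, to 0.94 at the lowest, without DMSO day 0 replicate 1 or 2 or DMSO day 14 replicate 2. At day 7 it had fallen by 0.44 (SE 0.08, adjusted p 0.000884). NEAT1 read 1535, 1932 and 2113 CPM at day 0, rose by 0.72 at day 14 (SE 0.11, adjusted p 0.000257) and fell by 0.63 at day 21 (SE 0.17, adjusted p 0.0186). For both RNAs the order of the 9 groups began with DMSO day 14 and then FAKi day 14, without overlap between these, and NEAT1 ended with DMSO day 21.

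The day 14 rise went with the share of mitochondrial counts, which was 17.0 to 18.8% at day 0, 22 to 27% in DMSO day 14 and 20.7 to 22.1% in FAKi day 14. At day 21, where GAS5 was highest, that share was 5.49 to 9.75% in DMSO and 10.7 to 11.2% in FAKi. In DMSO day 21 NEAT1 had its lowest mean, 1203 CPM, while MALAT1 averaged 634 CPM, against 676 CPM at day 0. The lowest MALAT1 value, 412 CPM, was in FAKi day 7 replicate 2, with 20.2% mitochondrial counts. The part of this share in the members' changes was not tested. Leaving the mitochondrial genes out cannot test it, since this changes little besides the scaling of the libraries. In that fit MALAT1 at DMSO day 14 was at 1.03 and GAS5 at DMSO day 21 at 1.39, both called.

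**Figure D4:**
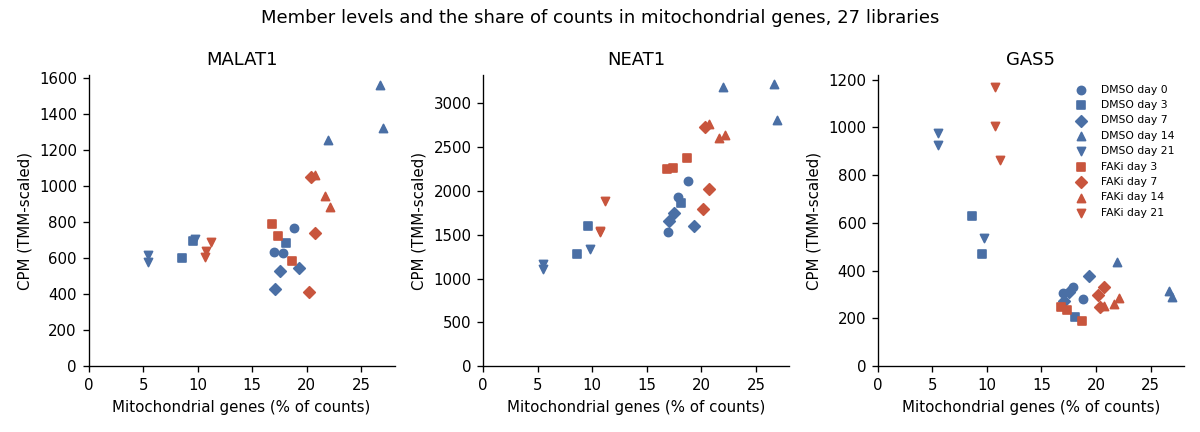
Levels of MALAT1, NEAT1 and GAS5 in TMM-scaled CPM (y axes) against the percentage of counts in mitochondrial genes (x axes), with each point 1 of 27 libraries, colors for treatment and shapes for the day. The DMSO day 14 libraries, at 22 to 27%, hold the highest MALAT1 and NEAT1 levels, and the 6 libraries of day 21, at 5.49 to 11.2%, hold the 5 highest GAS5 levels.

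MALAT1 is known to end without a poly(A) tail, in a stretch of encoded A that folds back on runs of T upstream, so its 3′ end is shown because the kit selects RNA by its poly(A). The window is chr11:65505998-65506150 on the plus strand of hg38, with the longest run of A in the counted transcript, 13 bases, in capitals.
MALAT1 end: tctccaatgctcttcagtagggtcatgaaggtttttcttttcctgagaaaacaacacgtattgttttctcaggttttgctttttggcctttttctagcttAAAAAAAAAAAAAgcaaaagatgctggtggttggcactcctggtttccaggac

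The proteins of both bodies were counted from lists of 15 nuclear speckle and 12 paraspeckle genes. In FAKi against DMSO, 1 of 15 speckle genes was called, SRRM2, a large scaffold protein of speckles, which was higher at day 21 by 1.52 (SE 0.29, adjusted p 0.0193), where 5.28% of all genes were called. Its level was 206 ± 69 CPM in DMSO day 21 and 572 ± 173 CPM in FAKi day 21 (SD, n = 3). Without DMSO day 21 replicate 3, 3 speckle genes were called higher and 1 lower, against 18.7% of all genes. The median log2 fold change of the 15 was 0.20 at day 21, beside 0.01 over all genes. At day 14 in DMSO against day 0, 8 of 15 speckle genes were higher and 2 lower by adjusted p, which 28.3% of all genes passed, with 0 called. At day 21 in DMSO, 2 were higher and 7 lower by adjusted p, which 44.9% of all genes passed, and the 3 called were all lower, SRRM1 by 1.61, SRRM2 by 1.20 and SRSF11 by 1.07. Of the 12 paraspeckle genes, which include SFPQ and NONO, 0 were called in FAKi against DMSO on any day or in DMSO against day 0. In DMSO against day 0, by adjusted p, 5 of the 12 were higher and 0 lower at day 14 (28.3% of all genes passed), and 0 were higher and 7 lower at day 21 (44.9%). In FAKi against DMSO at day 21, 2 of the 12 were lower, SFPQ by 0.47 and SMARCA4 by 0.51, and 0 higher by adjusted p (11.6% of all genes passed), with a median of -0.31, while NEAT1 was at 0.51. Without DMSO day 21 replicate 3 that day 21 comparison had 4 lower and 1 higher, where 48.5% of all genes passed.

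GAS5 rose in DMSO from day 0 to day 21, and its levels in FAKi day 21, not tested against day 0, overlapped with those of DMSO day 21. It read 306, 330.2 and 282 CPM in DMSO day 0, and 975, 925 and 538 CPM in DMSO day 21, a log2 fold change of 1.40 (SE 0.23, adjusted p 0.00321) that was called under all 16 alternatives, between 1.27 and 1.62. In FAKi day 21 it read 1171, 1008 and 864 CPM, and FAKi against DMSO on that day was 0.38 (SE 0.23, adjusted p 0.291). The low DMSO day 21 value was that of replicate 3. FAKi day 21 and DMSO day 21 were the highest of the 9 groups and overlapped with each other.

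At day 14 GAS5 was lower in FAKi. It read 437, 316 and 291 CPM in DMSO and 252, 262 and 285 CPM in FAKi, a log2 fold change of -0.39 (SE 0.12, adjusted p 0.0411), under the fold threshold. Of all genes, 12.4% passed the adjusted p there. Over 16 alternatives GAS5 lay between -0.50 and -0.19, with adjusted p up to 0.379. At day 3 it read 247, 191 and 235 CPM in FAKi against 208, 471 and 631 CPM in DMSO. The low DMSO value was that of replicate 1, with 18.1% mitochondrial counts, and the 2 high ones were in the libraries with 9.59% and 8.61%. The log2 fold change at day 3 was -0.95 (SE 0.33, adjusted p 0.140), or -1.27 without replicate 1. At day 7 it was -0.14 (SE 0.17, adjusted p 0.840), and the mean effect was -0.28 (SE 0.13, adjusted p 0.147).

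GAS5-AS1, on the other strand, ends within the 3′ end of GAS5. It read 12.3, 14.1 and 13.0 CPM in DMSO day 0 and 133, 121 and 45.0 CPM in DMSO day 21, a called log2 fold change of 2.92 (SE 0.37, adjusted p 0.0018), or 3.27 without DMSO day 21 replicate 3. At DMSO day 14 it was lower than at day 0, at -1.19 (adjusted p 0.000529). ZBTB37, which starts upstream of GAS5 on the other strand, fell by 0.80 in DMSO day 21 against day 0 (adjusted p 0.00978) and was higher in FAKi at day 21 by 1.51 (adjusted p 0.00937). At day 14 it went the other way, higher in DMSO than at day 0 by 1.22 (adjusted p 2.4e-05) and lower in FAKi, at -0.79 (adjusted p 0.000378), and its FAKi effect changed by 2.28 between days 14 and 21 (adjusted p 0.000113).

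Other noncoding genes that host snoRNAs were mostly higher in DMSO at day 21, as GAS5 was, but not at day 14. Of 15 such genes, 13 were higher in DMSO day 21 than in DMSO day 0 by adjusted p, which 44.9% of all genes passed, and 8 were called, against 23.3% of all genes, with a median log2 fold change of 1.03 beside 0.03 over all genes. SNHG5 changed most, by 1.87 (SE 0.32, adjusted p 0.00397), from 44.8 ± 5.1 to 164 ± 72 CPM (SD, n = 3), followed by SNHG7 at 1.57 and SNHG6 at 1.35. SNHG1 and SNHG3 did not pass, at 0.19 and 0.33. Without DMSO day 21 replicate 3, 15 of 15 were higher by adjusted p and 12 were called, where 69.7% and 36.9% of all genes were. At DMSO day 14, where GAS5 was at 0.18 (adjusted p 0.343), 6 of the 15 were lower and 3 higher by adjusted p (28.3% of all genes passed), with DANCR at -0.64, SNHG17 at -0.59 and SNHG12 called higher, at 1.18. In FAKi against DMSO at day 14, 8 of the 15 were lower and 1 higher by adjusted p, which 12.4% of all genes passed, with a median of -0.36, and 0 were called. ZFAS1 was lowest, at -0.90 (adjusted p 6.51e-05), and the higher one was SNHG17, at 0.37 (adjusted p 0.0435). Over the mean of the 4 days 8 of 15 were lower and 0 higher by adjusted p, which 15.7% of all genes passed, with DANCR at -0.48 and SNHG7 at -0.63. At day 21 alone 2 were lower and 1 higher (11.6% of all genes passed), or 9 lower and 3 higher without DMSO day 21 replicate 3 (48.5%).

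**Figure D5:**
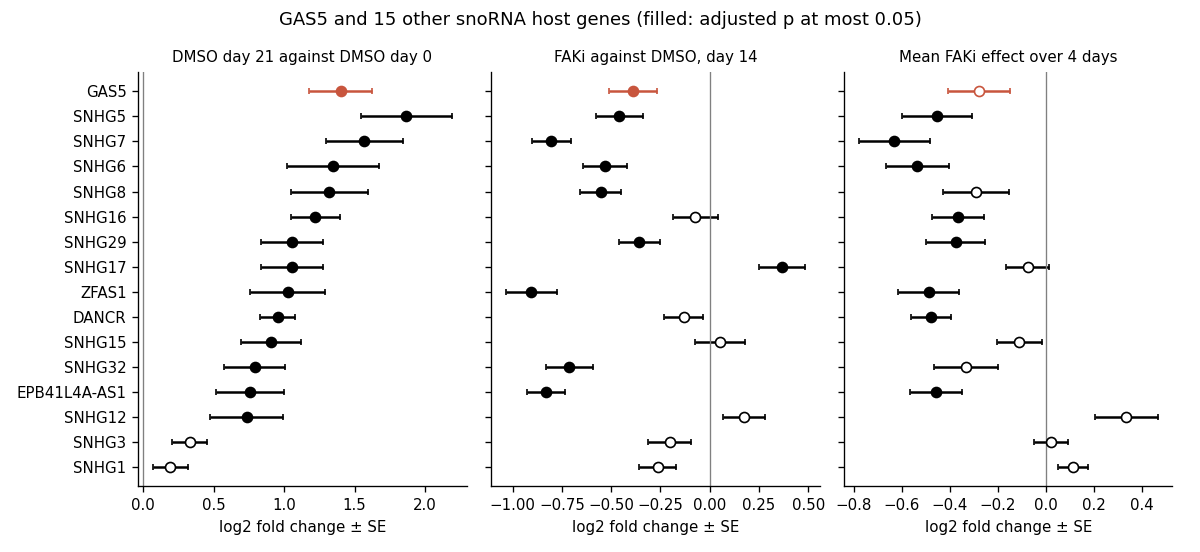
Log2 fold change ± SE (x axis) of GAS5 (red) and 15 other snoRNA host genes (black, y axis) in DMSO day 21 against DMSO day 0, FAKi against DMSO at day 14, and the mean FAKi effect over 4 days, filled where the adjusted p was at most 0.05. GAS5 and 13 of the 15 other genes are filled and to the right of 0 in the first panel, and 8 of the 15 are filled and to the left of 0 in the second and in the third.

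The starts of GAS5 and 5 of these genes are shown for the run of C and T, in capitals, within 10 bases before to 20 bases from the start. GAS5 was read at the start of its counted transcript on hg38 (chr1:173867972-173868001, minus strand), and the others at RefSeq starts on GRCh38.p14: SNHG5 (chr6:85678714-85678743, minus), SNHG16 (chr17:76557754-76557783, plus), SNHG32 (chr6:31834906-31834935, plus), ZFAS1 (chr20:49278632-49278661, plus) and EPB41L4A-AS1 (chr5:112160516-112160545, plus).
GAS5: gcaccatactgTCTTTTCgaggtaggagtc
SNHG5: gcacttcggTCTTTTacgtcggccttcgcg
SNHG16: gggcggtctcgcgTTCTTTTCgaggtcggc
SNHG32: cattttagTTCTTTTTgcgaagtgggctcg
ZFAS1: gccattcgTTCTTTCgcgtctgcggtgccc
EPB41L4A-AS1: tcatgaaTTCTgtcgggtcccaaaatacgt

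A run of at least 7 was present in GAS5, in 6 of the 13 host genes with a RefSeq window and in 19.3% of all 35116 windows. SNHG5, with the largest change, had a run of 6, and SNHG1, which did not pass, had a run of 7.

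Among 17 other well known long noncoding RNAs, of which 16 were tested, 1 was called in FAKi against DMSO, at day 21, where 5.28% of all genes were called: BANCR, first described in BRAF mutant melanoma. It was lower by 2.18 (SE 0.39, adjusted p 0.0160), or -2.44 without DMSO day 21 replicate 3, at 3.99 ± 1.70 CPM in DMSO and 0.867 ± 0.262 CPM in FAKi (SD, n = 3). In DMSO it was higher at day 21 than at day 0 by 1.62 (adjusted p 0.00806), so that day 21 in DMSO held the highest of its 9 group means. At day 14, 5 of the 16 were lower in FAKi by adjusted p and 0 higher, where 12.4% of all genes passed, with a median of -0.39.

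The genes whose log2 CPM followed each member most closely over the 27 libraries are given as a description, since all points share depth, day and treatment. NEAT1 was closest to PNN, a speckle protein gene, at Pearson r 0.966, while its neighbor MALAT1 ranked only 1695th of 16982 genes, at 0.755. GAS5 was closest to BOD1 (0.969) and then SNHG5 (0.964), and GAS5-AS1 ranked 129th (0.910). PCA3 was closest to MAGI3 (0.951) and GCNT1 (0.950), and PRUNE2 ranked 75th (0.891). MALAT1 was closest to ENSG00000280385 on chromosome 11 (0.909), H19 to SKA2 (0.927) and NUF2 (0.913), both genes of the mitotic spindle and kinetochore, and SAMMSON, at its low counts, to DHRS4-AS1 (0.825).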

How the data were processed

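RNA of 27 libraries (GNAQ mutant 92.1 cells, 9 groups of 3) was prepared with a stranded poly(A) kit. The authors trimmed reads with Trim Galore, checked them with FastQC 0.11.8, aligned them to hg38 with STAR 2.5.3a and counted them with HOMER on the exons of 1 GENCODE 39 transcript per gene. The deposited values are raw counts, without normalization. Strand and multimapping settings are not given in the sources used here. All columns were matched to samples, with 0 left over.

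Tests used edgeR 4.0.16 (R 4.3.3, limma 3.58.1) on the libraries of the compared groups, with at least 20 counts in total, TMM scaling, the quasi-likelihood F test and Benjamini-Hochberg adjustment over all genes tested. DESeq2 1.42.0, the tool named in the methods, was an alternative. The pipeline was tested on simulated data. Levels are CPM with TMM over 27 libraries, and floors are 3 counts (counting error only). The labels do not state a pairing of replicates. It was taken for day 21 only, from these same data, where deviations of libraries with the same number correlated (r 0.443, 0.128 and 0.658). The highest r was that of replicate 3, whose DMSO library stood apart from its group. Alternatives were RLE and upper quartile scaling, other count filters, 1 fit of 27 libraries, the adjusted p alone, no mitochondrial genes, the replicate block and each library left out. The adjusted p alone cannot end a call of the main fit, so it adds nothing where a call was kept under all alternatives. For the lists, leaving out the libraries that stood apart was chosen after seeing the data.

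The members, the lists and the rule for naming (members, listed genes called between FAKi and DMSO or in the mean effect, locus partners and the 3 most alike genes) were chosen with earlier results of these data known. The snoRNA host genes, SRRM1, SRSF11, SOX10, MITF, XRN2 and C1QBP were named after their values were seen. Sequences come from hg38 and RefSeq (GRCh38.p14), and 1 promoter window and 1 marker gene are not reported here. In the GAS5 locus, snoRNA rows were not matched and are not used here.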

Additional observations from a re-analysis of the deposited data

Results flagged for a closer look

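The FAKi effect on 4 members changed between days in the interaction test of edgeR, with adjusted p no higher than 0.05, and each is listed as a difference between time points. Of all genes, 2.93% passed this limit from day 3 to day 21, 8.54% from day 3 to day 14 and 12.7% from day 14 to day 21. For H19 the change from day 3 to day 21 was -3.13 on the log2 scale, with the effect at 1.03 at day 3 and -2.07 at day 21. NEAT1 changed by -0.75 from day 3 to day 14 and by 0.69 from day 14 to day 21, with FAKi libraries above DMSO libraries at days 3 and 21 and below them at day 14. MALAT1 changed by 0.57 from day 14 to day 21, and SAMMSON by 2.05 over the same days. The comparisons with day 14 were added after the values were seen. Under the alternatives the adjusted p reached 0.0658 for H19, and 0.0895 and 0.0654 for the NEAT1 changes in the order given. Some alternatives also lifted those of MALAT1 and SAMMSON above 0.05. Groups of 3 libraries are too small for the test of single outlying libraries.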

How the results depend on the processing

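The count of 6 members called moved in these settings. Without a count filter it was 1 at day 3, 1 at day 7 and 2 for the change from day 3 to day 21. With all 27 libraries in 1 fit it was 1 at day 3, 0 at day 14, 2 for the change from day 3 to day 21 and 1 from day 3 to day 14. DESeq2 gave 1 at day 3 and 1 for the change from day 3 to day 14. The adjusted p alone gave 3 at day 14, 1 for DMSO day 7 against day 0, 2 for the mean effect, 1 for the change from day 3 to day 14 and 3 from day 14 to day 21. DESeq2 with the adjusted p alone gave 3 at day 3, 4 at day 14, 1 for DMSO day 7 against day 0, 2 for the mean effect, 3 for the change from day 3 to day 14 and 3 from day 14 to day 21.

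Leaving out 1 library gave 0 to 3 members called at day 3, 0 to 3 at day 21, 0 to 2 for DMSO day 14 and 1 to 2 for DMSO day 21 against day 0, 0 to 2 for the change from day 3 to day 21, 0 to 1 from day 3 to day 14 and 0 to 3 from day 14 to day 21. Small log2 fold changes that were not called turned sign without 1 library. At day 7 without 1 library SAMMSON ran from -0.58 to 0.23 and H19 from -0.036 to 0.53, both turned by FAKi replicate 1. Against day 0, GAS5 at DMSO day 14 ran from -0.012 to 0.30 and H19 at DMSO day 21 from -0.37 to 0.078, and the mean effect on MALAT1 ran from -0.046 to 0.11. Of 184 values of called differences, 154 stayed called, 30 did not and 0 turned sign. Some of the 154 could not change, since the adjusted p alone cannot end a call of the main fit. DESeq2 entered both with and without the fold threshold. At day 21 the calls of PCA3, SAMMSON and H19 were each lost in 5 of 16 alternatives, each time by leaving out 1 library. The cause was not tested.

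The replicate block, printed beside day 21, a day picked from deviations in these same data, gave 3 members called at day 21 and 0 at day 3. SAMMSON, H19 and PCA3 rest on few counts in many libraries and carry the widest errors, and MEG3 could not be tested at this depth.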
